A study of Mus musculus with 37 samples.

Results

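The regions described here are 200 bp stretches of open chromatin that were more open in the tagged nuclei of both interneuron classes studied than in the untagged nuclei of the same tissue. They were chosen by the deposited counts of the saline libraries. In the table of parvalbumin (PV) libraries collected at 60 min, a region was kept if it overlapped a region of the somatostatin (SST) table by at least 1 bp. Its mean level in pulled-down nuclei (IP) had to reach 2 CPM (counts scaled by the total of the library) in both tables, and its log2 ratio over the unbound fraction (UF), with 0.5 CPM added to both, had to reach 1 in both. This rule kept 6966 of the 205848 regions of the PV table (3.38%), and 132260 regions of that table overlapped an SST region. The saline levels and ratios that follow chose the regions, so they are given as a description and carry no test.

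All mice carried the Cre-dependent nuclear-envelope tag Rosa-LSL-Sun1-GFP together with Pvalb-IRES-Cre or Sst-IRES-Cre, each as 1 copy, and were 60 to 210 days old. Nuclei of the nucleus accumbens were pulled down with an antibody to GFP (IP), the supernatant was kept as UF, and each library came from 1 mouse. At 60 min after an intraperitoneal injection of saline or 3 mg/kg amphetamine (AMPH), each fraction of the PV line was sequenced in 4 mice per treatment. At 24 h after the last of 6 daily injections, 4 libraries were made per fraction with AMPH, and with saline there were 4 of UF but 3 of IP. The SST line was studied with saline alone, at 3 libraries per fraction. Total counts ran from 650666 to 15120963 per library. All groups thus shared the tag and a Cre driver, and the pulldown takes any cell in which that driver is or was active. The buffers of all groups held sodium butyrate, which inhibits histone deacetylases.

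PV and SST interneurons are local GABA neurons that arise, like most of their kind in striatum and cortex, from the medial ganglionic eminence (MGE) of the embryonic forebrain, where a cascade of homeodomain and SOX transcription factors sets their fate. In the adult accumbens they are rare among spiny projection neurons (SPNs). ATAC-seq reads open chromatin through the Tn5 transposase, and distal open regions, away from gene starts, are where cell types usually differ most, since many of them are enhancers. In such pools of nuclei, a larger share of nuclei with an open region and a more open region per nucleus cannot be told apart.

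The pulldown was checked on its driver genes. The 5 regions within 2 kb of Pvalb summed to 43.7 to 86.4 CPM in PV IP and 6.65 to 8.83 CPM in PV UF after saline. The single region at Sst held 10.6 to 16.4 CPM in SST IP and 1.02 to 1.71 CPM in SST UF. Each driver gene also had counts in the other line. After saline the Sst region had 2.30 to 6.09 CPM in PV IP and 1.24 to 2.16 CPM in PV UF, without overlap, and after AMPH at 60 min 0.746 to 4.33 and 0.659 to 2.36 CPM, with overlap. The 3 regions of the SST table at Pvalb summed to 5.42 to 11.2 CPM in IP and 6.06 to 6.93 CPM in UF. Regions of the SPN list summed to 1370 to 1464 CPM in PV IP and 2175 to 2329 CPM in PV UF, and those of the oligodendrocyte list to 258.3 to 313.8 and 532.6 to 678.3 CPM. In SST the SPN list ran at 1334 to 1395 CPM in IP and 1462 to 1527 CPM in UF, closer together than in PV. The oligodendrocyte list ran there at 276.1 to 284.2 CPM in IP and 612.0 to 648.8 CPM in UF. The cortical glutamatergic list overlapped between IP and UF in SST, at 351.5 to 404.2 and 342.4 to 363.9 CPM. In PV after saline it overlapped as well, at 337.9 to 420.7 and 350.7 to 439.1 CPM. Regions of the endothelial and mural list were higher in PV IP (229.5 to 379.0 CPM) than in PV UF (174.4 to 207.6 CPM), and in the SST table the same list ran at 134.0 to 157.1 CPM in IP and 155.2 to 160.6 CPM in UF.

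The bases of 4 regions at gene starts show what the members look like as sequence, and they were picked after their values were seen: Lhx6, the LIM homeodomain factor that specifies MGE interneurons; Kcns3, a potassium channel subunit used as a marker of PV neurons; Cort, the neuropeptide cortistatin of SST-class neurons; and Lrrc17, a leucine-rich repeat protein. The bases are those of the region that lie before a RefSeq start (GRCm38.p6, the assembly of mm10), written 5′ to 3′ on the strand of the gene. Capitals mark matches, on either strand, to any of 9 motifs searched: the homeodomain core, AP-1, the NKX2 core, the SOX core, the octamer, the GC box, the TATA box, the CRE and MEF2. Their letters are given with their shares further on. The Lhx6 bases lie at chr2:36105413-36105612 on the minus strand, inside the annotated span of the gene, those of Kcns3 at chr12:11150374-11150482 on the minus strand, those of Cort at chr4:149126764-149126860 on the minus strand and those of Lrrc17 at chr5:21543428-21543526 on the plus strand, inside the span of Fbxl13.
Lhx6: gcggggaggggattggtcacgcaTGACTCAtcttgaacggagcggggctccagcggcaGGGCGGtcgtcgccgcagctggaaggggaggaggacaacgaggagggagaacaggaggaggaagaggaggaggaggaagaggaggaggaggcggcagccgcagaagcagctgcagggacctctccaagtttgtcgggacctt
Kcns3: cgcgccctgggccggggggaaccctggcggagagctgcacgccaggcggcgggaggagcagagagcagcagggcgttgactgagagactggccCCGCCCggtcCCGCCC
Cort: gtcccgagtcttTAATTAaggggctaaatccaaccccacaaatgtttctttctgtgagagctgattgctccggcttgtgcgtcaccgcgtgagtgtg
Lrrc17: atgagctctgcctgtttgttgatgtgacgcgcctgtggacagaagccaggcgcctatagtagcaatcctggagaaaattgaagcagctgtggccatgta
The Lhx6 stretch holds 1 AP-1 and 1 GC box match, the Kcns3 stretch 2 GC boxes read on the opposite strand, and the Cort stretch 1 homeodomain core. No searched motif is in the Lrrc17 stretch. The start windows counted further on are longer than these stretches, so a window can hold a match outside the bases of the member, as with a TATA box in the Lrrc17 window and a SOX core in the Cort window.

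Few members are at gene starts, however. Of the 6646 members with a start distance (chromosome 18 was not used for starts), 97 lay within 1 kb of a start (1.46%), against 10.6% of all regions of the PV table. The median distance was 116 kb for members and 48.7 kb for all regions. It was 67.1 kb for the 7466 regions that met the limits in PV but not in SST and 45.3 kb for the 6856 regions lower in both classes by mirrored limits. The shares within 1 kb of a start were 4.87% and 3.52% in these sets, also below that of all regions. Members lay inside a protein-coding gene in 3131 cases (44.95%, against 59.47% of all regions), and 1885 of them (27.06%, against 12.53%) were over 100 kb from the nearest one. Where a member was inside a gene, that gene was long, at a median of 220.1 kb, against 118.6 kb for all regions. The median was 164.1 kb for regions that met the limits in PV but not in SST and 105.7 kb for those lower in both. Members were scattered: joined within 10000 bp, they formed 6370 loci, of which 5846 held a single member, and the densest locus held 5 (Mgat5). Only 22 pairs of neighbouring members overlapped each other.

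**Figure D1:**
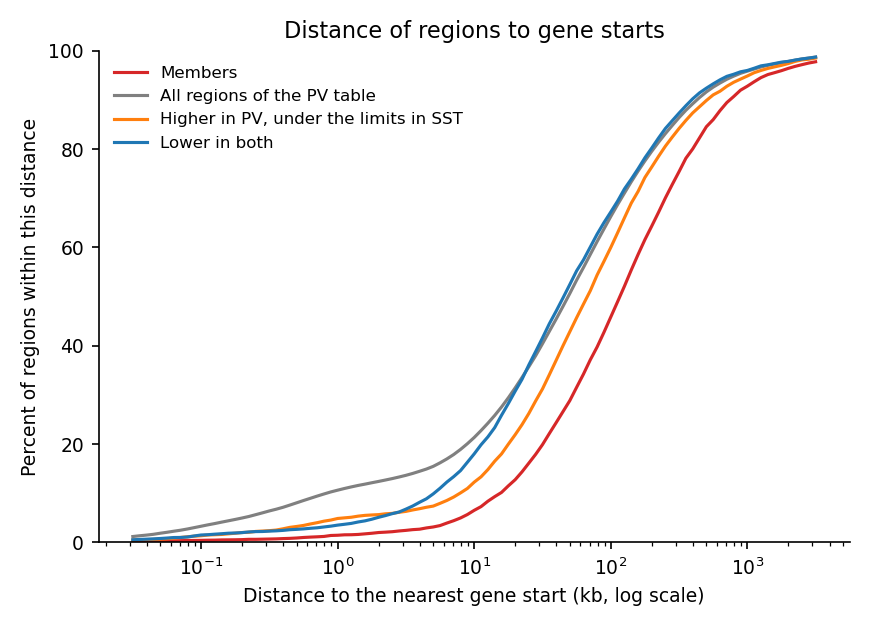
Share of regions (y axis, percent) within a given distance of the nearest gene start (x axis, kb, log scale) for members, all regions of the PV table, regions higher in PV that missed the limits in SST, and regions lower in both. The curve of the members lies below the others over most of the range, with a median of 116 kb.

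At the start windows, 72 members overlapped the 250 bases before 78 starts of 75 gene symbols, 37 of them protein-coding genes with the symbol in the annotation. These windows had a median GC content of 51.0% (quartiles 45.3 and 58.8), against 60.8% for the 12707 windows that overlap any region of the PV table and 52.4% for all 32851 windows. Motifs were searched on both strands, and overlapping matches of different motifs were each counted. The GC box (GGGCGG) was in 25.64% of the members' windows, 57.09% of the windows with any region and 32.74% of all windows. The homeodomain core (TAATTA) was in 7 of 78 (8.97%), among them Cort and Rassf6, against 2.27% of windows with any region and 4.84% of all windows. The AP-1 motif (TGANTCA) was in 7 of 78 as well (8.97%, Lhx6 among them, against 4.86% and 6.75%). The SOX core (ACAAAG) was in 10 (12.82%, against 11.72% and 16.46%). The NKX2 core (CAAGTG) was in 11.54% of the members' windows, 9.04% of those with any region and 11.61% of all windows. For the octamer (ATTTGCAT) the shares, in the same order, were 3.85%, 1.35% and 1.6%. For the TATA box (TATAAA) they were 11.54%, 5.64% and 12.37%. For the CRE (TGACGTCA) they were 2.56%, 2.66% and 1.55%, and for MEF2 3.85%, 2.46% and 3.2%. GC content moved with these shares, and its part in them was not tested.

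Over members, the median saline level was 5.58 CPM in PV IP and 1.15 CPM in PV UF, and 4.92 CPM in SST IP and 1.25 CPM in SST UF. The log2 ratio of IP over UF had a median of 1.77 in PV (highest 4.08) and 1.53 in SST (highest 4.75). Within the members the 2 ratios had a Pearson r of 0.22, over 6966 regions that share the same libraries. The limit of 1 on both ratios narrows their range, so this r does not tell how they relate over all regions. The ratios were within 0.5 of each other in 53.13% of members. In 838 members the PV ratio was at least 1 above the SST ratio, and in 327 the reverse held. Both ratios reached 2 in 744 members and 3 in 6. The limit itself is a line through a continuum: 3 members just inside it, nearest to Mki67, Slitrk1 and Rgs13, had PV ratios of 1.0001 to 1.00027, and 3 regions just outside, nearest to Tenm3 and Tox2, had SST ratios of 0.99996 to 0.99998.

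**Figure D2:**
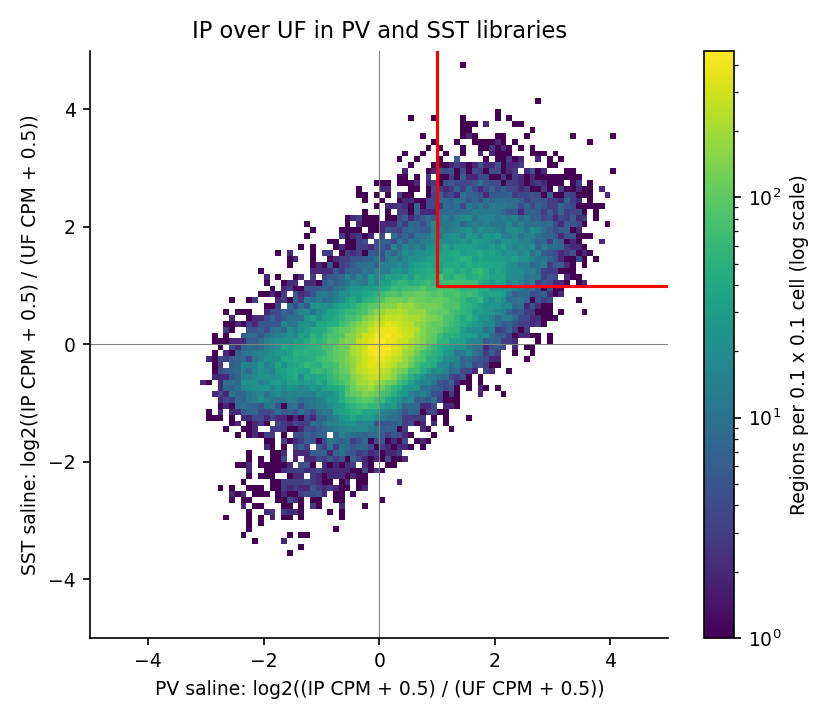
Log2 ratio of IP over UF after saline in the PV table (x axis) and in the overlapping SST regions (y axis) for regions with at least 2 CPM in both IP means; colour gives the number of regions per cell. The red lines at 1 enclose the members, which form one end of a continuous cloud.

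There were 18 members that stood apart by their level: their PV UF mean was at least 49.2 CPM, while the next member had 13.6 CPM. They include 3 regions at chr1:24611995-24614750, a stretch known as a nuclear copy of mitochondrial DNA, 3 inside Myo3a on chromosome 2, 3 on chromosome 4 far from Tyrp1, and a region at chr12:97061511-97061710 with 6567 CPM in PV IP and 2116 CPM in PV UF. Across the 16 libraries of the PV table their log2 levels rose and fell together, with a median pairwise r of 0.99 and a lowest of 0.94. They took 1.24 to 6.90% of all counts in the saline PV IP libraries, against 3.16 to 6.47% for the other 6948 members together. Where their reads came from was not tested, and shares of counts are given here without them.

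PV IP libraries differed among themselves. After saline, replicate 1 was the highest of the 4 IP libraries in 58.1% of members, replicate 4 the lowest in 44.0% and replicate 5 the lowest in 45.9% while also the highest in 30.1%. After AMPH at 60 min, replicate 3 was the highest in 53.4% and replicate 4, the shallowest at 1386842 counts, the lowest in 56.1% and the highest in 24.7%. Without saline IP replicate 1 the rule kept 5985 regions, without replicate 4 it kept 7326 and without replicate 5 it kept 7101. The median level over members was 3.55 to 7.47 CPM in the saline PV IP libraries and 0.951 to 1.41 CPM in the saline PV UF libraries, and 4.75 to 5.11 CPM and 1.23 to 1.28 CPM in SST IP and UF.

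The endothelial and mural list ran in the opposite order to the members in the PV IP libraries at 60 min. After saline the libraries with a member median of 7.47, 5.30, 4.50 and 3.55 CPM had 229.5, 278.7, 284.9 and 379.0 CPM at that list. After AMPH those with 7.68, 6.47, 4.58 and 4.33 CPM had 210.6, 252.3, 318.6 and 337.5 CPM. The part of this list in the spread of the members was not tested.

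The AMPH libraries at 60 min did not enter the rule, and there the members were again higher in IP. The median over members was 4.33, 4.58, 6.47 and 7.68 CPM in the IP libraries and 1.12, 1.38, 1.41 and 1.48 CPM in UF, so every IP library lay above every UF library. Members other than the 18 held 3.99 to 6.84% of counts in IP and 1.04 to 1.29% in UF. With edgeR's quasi-likelihood test on all regions and Benjamini-Hochberg adjustment (called: adjusted p under 0.05), 6516 of the 6966 members were called higher in IP without a filter on low counts (93.54%), 0 were called lower and 450 were not called. The background of that fit was 21.3% of all regions called higher. With the low-count filter of the planned fit, which 4786 members passed, 4638 were called higher against a background of 21.5%. The median log2 fold change of all members was 2.27 (middle 50% 1.77 to 2.80, median SE 0.45), against 0.00 for all regions, and 6965 of 6966 were above 0. In 3901 members (56.001%) each of the 4 IP libraries was above each of the 4 UF libraries, against 12.8% of all regions.

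**Figure D3:**
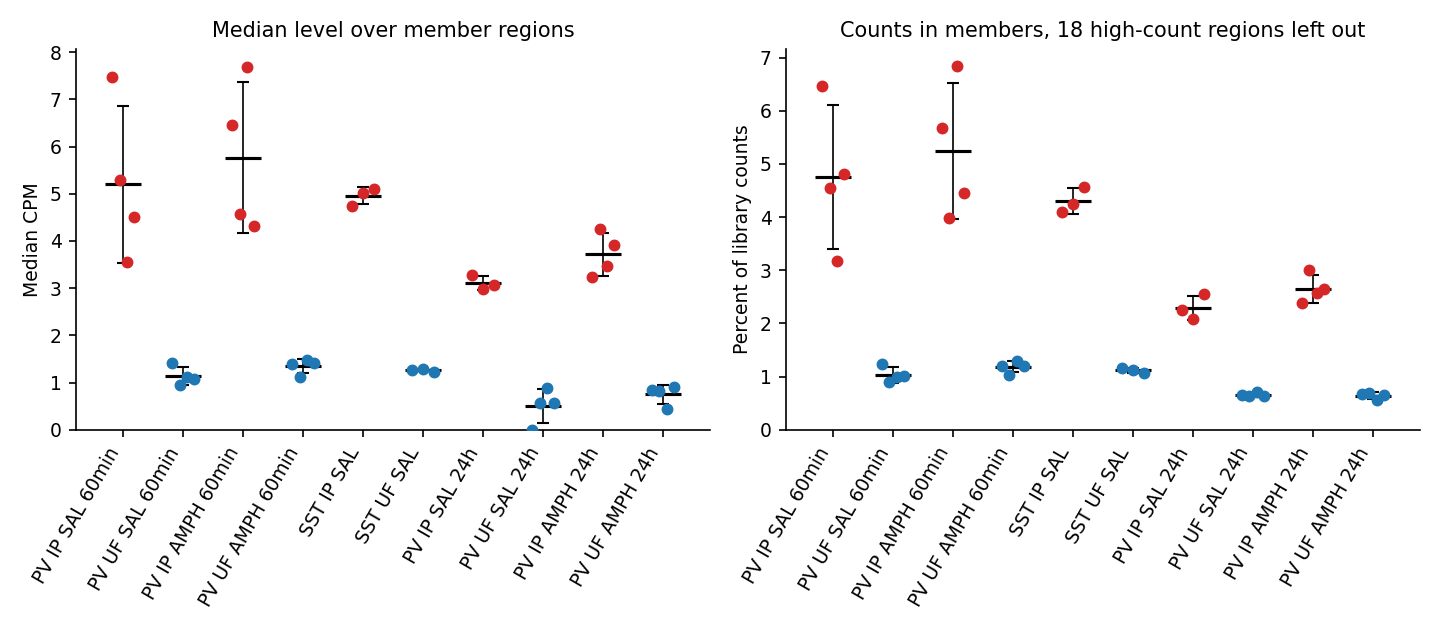
Median CPM over members (left) and percent of library counts in members without the 18 high-count regions (right), 1 point per library, for the 10 groups; red is IP, blue is UF, bars are the mean and 1 SD. IP libraries lie above UF libraries in both tables and at both times. The 24 h groups count only members with a matching region in that table.

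Regions that met the limits in PV but not in SST had a median of 1.58 (84.99% called) in the same fit, and those lower in both had -1.83 with 0 called higher. The fold grew with the strength of the saline ratios. Members with a lower ratio of 1 to 1.5 (4266) had a median AMPH fold of 1.98 and 91.77% were called; those from 2 to 2.5 (632) had 3.02 and 95.89%, and the 112 above 2.5 had 3.53 and 94.64%. Called shares also followed level, from 86.20% of members at 2 to 4 CPM in PV IP to 98.56% of the 347 at 16 CPM or more. The 97 members within 1 kb of a start had a median of 1.74 and those over 100 kb away 2.34.

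The 15 members with the highest lower ratio, at most 1 per nearest gene, were all outside protein-coding genes, 12.8 to 1603 kb from the nearest one. Their PV ratios were 2.83 to 4.08 and their SST ratios 2.87 to 3.57. In the AMPH libraries at 60 min their log2 fold changes without a filter were 3.46 to 5.38, and 14 of the 15 were called. They lie nearest to Manea, Grxcr1, Zfp804b, Cdh9, Mme, Sftpd, Gm597, Celf4, Bmp2, Olfm4, B3gat1, Pik3r1, Msc, Maf and Pdcd1; a nearest gene is given as a position, not as a target.

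The region 207 kb from Grxcr1 (chr5:68373289-68373488) had 46.1, 20.9, 13.6 and 4.76 CPM in the saline PV IP libraries and 0.883 to 1.94 CPM in UF. In SST it had 17.5, 18.6 and 23.1 CPM in IP and 0.879 to 1.95 CPM in UF. After AMPH at 60 min it had 25.6, 14.5, 46.3 and 3.61 CPM in IP and 2.35, 0.926, 2.30 and 0.472 CPM in UF. All IP libraries lay above all UF libraries in each set, although the PV IP values spread widely. Its log2 fold change after AMPH was 4.10 ± 0.62 (SE; edgeR adjusted p = 2.0e-04), and at 24 h it was 2.94 ± 0.73 after saline (adjusted p = 0.00141) and 3.86 ± 0.41 after AMPH (adjusted p = 6.6e-10). The saline call at 24 h was lost without IP library Iso2-2 (2.56) or UF library Iso2-1 (2.10).

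The region 99.8 kb from Maf (chr8:115806735-115806934), the nearest gene and itself a factor of MGE-derived interneurons, had 18.6, 12.9, 10.8 and 5.03 CPM in saline PV IP and 0.539 to 2.12 CPM in UF. It had 11.7 to 12.5 CPM in SST IP and 0.678 to 1.58 CPM in SST UF. The SST IP values were tight where the PV values were not. In the AMPH libraries at 60 min, IP held 9.56, 12.3, 24.3 and 2.16 CPM and UF 1.66, 1.26, 1.15 and 0.707 CPM, a log2 fold change of 3.52 ± 0.45 (edgeR adjusted p = 3.6e-06). At 24 h the fold was 5.20 ± 1.22 after saline (adjusted p = 6.0e-04) and 2.57 ± 0.56 after AMPH (adjusted p = 5.7e-04), again on the log2 scale; the latter call was lost without IP library Iso1-1 (1.81).

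Transcription factors of the MGE lineage held 8 members among 107 regions at 12 genes (7.48%, where members are 3.38% of all regions), Lhx6, Sox6 and Dlx2 among the genes. All 8 were called higher in the AMPH libraries at 60 min, where 93.54% of all members were, so calls do not set a list apart. Both regions of the PV table at Lhx6 were members. The one before its start, shown above, had 9.19, 12.2, 8.57 and 1.72 CPM in saline PV IP and 3.35, 2.65, 1.84 and 1.19 CPM in UF, so the lowest IP library lay within the UF range. SST separated fully there, with 7.58, 8.21 and 6.28 CPM in IP and 1.36, 1.92 and 1.41 CPM in UF. After AMPH at 60 min it had 5.06, 12.7, 8.89 and 1.44 CPM in IP and 0.830, 2.71, 2.63 and 0.943 CPM in UF, a log2 fold change of 2.20 ± 0.45 (edgeR adjusted p = 3.5e-04), with replicate 4 of IP again within the UF range.

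At 24 h the fold of this start region was 3.31 ± 0.93 after saline (edgeR adjusted p = 0.00538) and 0.68 ± 0.54 after AMPH (adjusted p = 0.388), where UF held 2.47 to 3.77 CPM and IP 3.23 to 11.0 CPM. The second Lhx6 region, 12.6 kb from a start (chr2:36091411-36091610), had 8.05 to 13.8 CPM in saline PV IP and 1.94 to 3.80 CPM in UF with no overlap. Its fold was 1.71 ± 0.36 after AMPH at 60 min (adjusted p = 4.5e-04), 1.82 ± 0.53 after saline at 24 h (adjusted p = 0.00734) and 1.58 ± 0.38 after AMPH at 24 h (adjusted p = 0.00149). The saline calls at 24 h were lost at the start region without IP library Iso2-1 (3.01) or UF library Iso2-2 (2.37), and at the second region without IP library Iso2-2 (1.78) or UF library Iso2-2 (1.38).

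Sox6, an SRY-box factor needed for the maturation of PV and SST interneurons, held 4 members among 39 regions, from 4.25 to 233 kb from a start. The strongest (chr7:115668699-115668898) had 11.3, 9.29, 3.03 and 26.9 CPM in saline PV IP, 0.272 to 1.08 CPM in PV UF, 4.88, 7.61 and 8.51 CPM in SST IP and 0.426 to 0.791 CPM in SST UF. All IP values were above all UF values, and saline replicate 5 was the highest IP library, as AMPH replicate 4 was after AMPH (27.4 CPM, against 5.91, 2.02 and 5.46 CPM). The log2 fold change after AMPH was 3.70 ± 0.63 (edgeR adjusted p = 7.1e-05). At 24 h its matched region was low, at 0.230 to 3.09 CPM in saline IP and 0 to 0.568 CPM in UF, and the fold after AMPH, 1.98 ± 1.31, did not pass (adjusted p = 0.286).

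**Figure D4:**
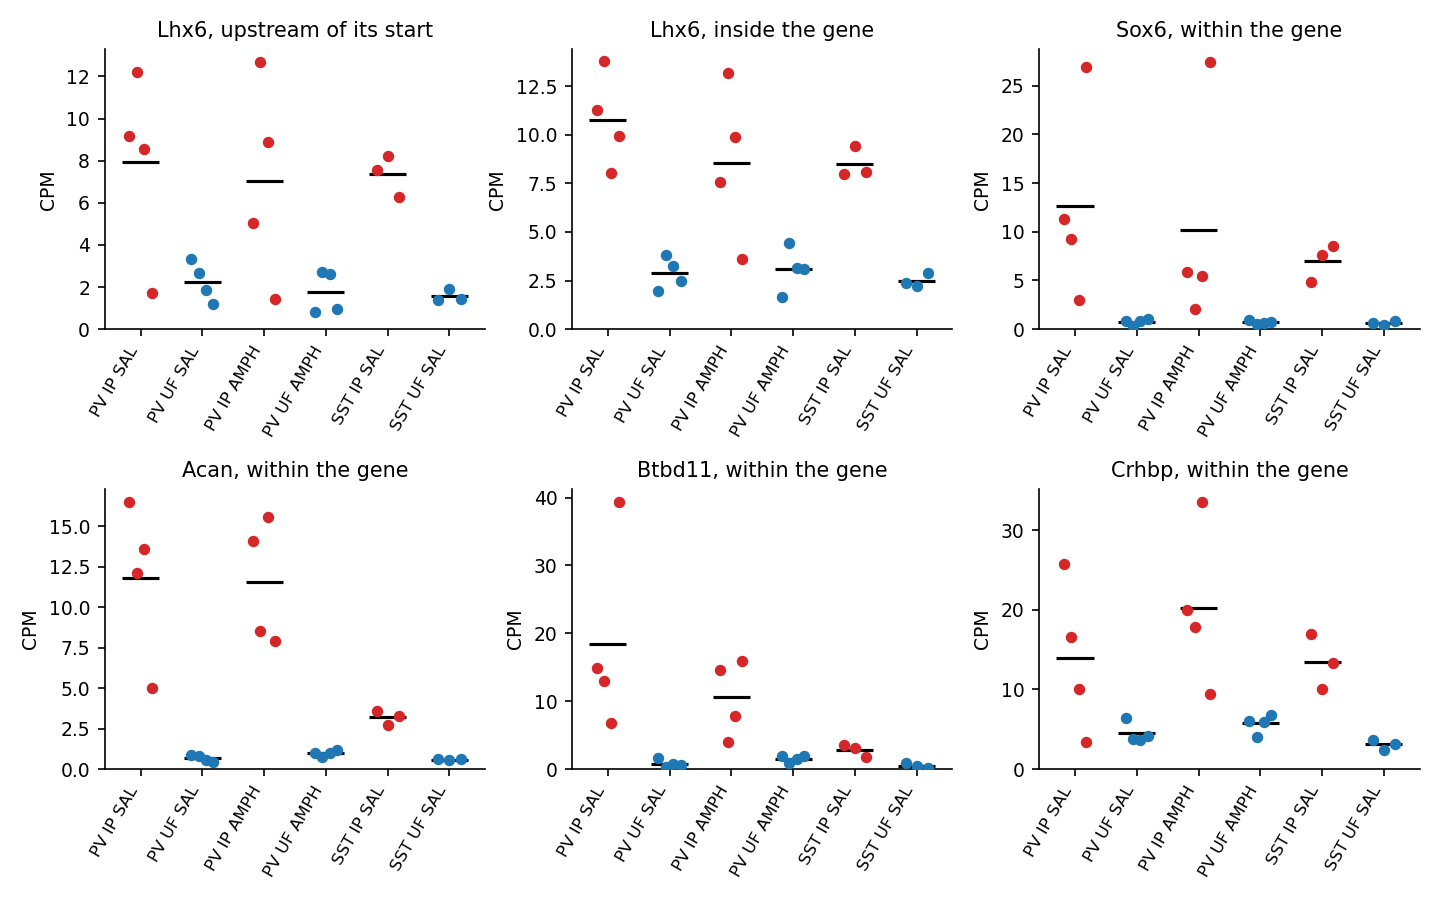
CPM per library (y axis, from 0) of 6 member regions in the PV libraries at 60 min and the SST libraries; red is IP, blue is UF, black bars are group means. IP points lie above UF points with the exception of low IP libraries at both Lhx6 regions and at Crhbp. The Acan and Btbd11 regions have higher CPM in PV IP than in SST IP, each scaled within its own table.

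Genes of the PV interneuron list held 23 members among 241 regions (9.54%), at 6 of 13 genes, and all 23 were called higher after AMPH at 60 min (93.54% of all members and 21.3% of all regions were), with log2 fold changes of 1.43 to 4.23. Btbd11, a protein of excitatory synapses on inhibitory neurons, held 7 of its 44 regions. The region with the most reads (chr10:85429223-85429422) had 14.9, 12.9, 6.79 and 39.3 CPM in saline PV IP and 0.272 to 1.59 CPM in UF, but 3.47, 3.04 and 1.70 CPM in SST IP and 0.176 to 0.847 CPM in SST UF. All 7 Btbd11 members had a higher PV ratio (1.63 to 3.89) than SST ratio (1.12 to 1.72). These ratios chose the members, and over all members the median was also higher in PV (1.77) than in SST (1.53). Every member at Kcnmb2 and Atg4a had the higher ratio in PV too, but not every one at Kcnip1 and Crhbp. After AMPH at 60 min the Btbd11 region with the most reads had 14.6, 4.05, 7.88 and 15.9 CPM in IP and 0.860 to 1.94 CPM in UF. Its log2 fold change was 2.88 ± 0.43 (edgeR adjusted p = 1.7e-05).

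Vwc2, which encodes brorin, a secreted antagonist of bone morphogenetic proteins, held 7 of its 20 regions, and 3 of them lay 0.2, 1.10 and 1.99 kb from its start. The first of these (chr11:11114117-11114316) had 15.5, 20.8, 11.9 and 15 CPM in saline PV IP and 3.00 to 5.75 CPM in UF, and 18.5, 21.0 and 24.5 CPM in SST IP and 7.14 to 10.0 CPM in SST UF. Its fold was 2.07 ± 0.29 after AMPH at 60 min (edgeR adjusted p = 9.9e-06) and 2.07 ± 0.37 after AMPH at 24 h (adjusted p = 3.1e-05). After saline at 24 h it was 0.49 ± 0.47 (edgeR adjusted p = 0.509). Of the potassium channel genes on the list, Kcns3 held 3 of its 8 regions, with a log2 fold after AMPH of 1.46 at its start and 4.11 at 57.4 kb, and Kcnc2, a Kv3 channel of fast-spiking cells, held 2 of 18. Cntnap4 had 3 members and Syt2, a calcium sensor of fast transmitter release, had 1.

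The SST interneuron list held 10 members among 131 regions (7.63%), at 6 of 11 genes, and 8 of the 10 were called. Crhbp, the binding protein of corticotropin-releasing hormone, had 3 of its 4 regions among the members. The highest (chr13:95439683-95439882) had 25.8, 16.6, 10.1 and 3.44 CPM in saline PV IP and 3.67 to 6.35 CPM in UF, an overlap by replicate 5, and 17.0, 10.0 and 13.3 CPM against 2.45 to 3.64 CPM in SST. After AMPH at 60 min it had 20.0, 17.9, 33.6 and 9.37 CPM in IP and 4.03 to 6.84 CPM in UF, a log2 fold change of 2.05 ± 0.30 (edgeR adjusted p = 1.6e-05). At 24 h it did not pass, with 1.30 ± 0.64 after saline (adjusted p = 0.147) and 1.24 ± 0.48 after AMPH (adjusted p = 0.0518). The Cort start region shown above had 2.25 to 8 CPM in PV IP and 0.863 to 1.41 CPM in UF; in SST it had 4.11, 0.913 and 1.70 CPM in IP and 0.703 to 1.02 CPM in UF, so 1 of the 3 IP libraries lay within the UF range. Its AMPH fold was 1.72 ± 0.41 (adjusted p = 0.00169), and at 24 h it was 2.06 ± 0.87 after saline (adjusted p = 0.0811) and 2.61 ± 0.50 after AMPH (adjusted p = 9.1e-05). Grin3a, an NMDA receptor subunit, had 2 members, and the fold of the higher one did not pass (0.61 ± 0.37, adjusted p = 0.197; called at 0.91 without AMPH IP replicate 3). Tacr1, the receptor of substance P, also had 2, and the higher one had a fold of 2.28 ± 0.40 (edgeR adjusted p = 9.0e-05).

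Among the lists of other cell types, 6 had a smaller share of members than the 3.38% of all regions and 2 a larger one, from few members each. Members were 5 of 467 at the SPN list (1.07%), at Foxp1, Meis2 and Bcl11b, 1 of 87 at the cortical glutamatergic list (1.15%, Rorb), 1 of 71 at the astrocyte list (1.41%, Slc1a3), 1 of 77 at the oligodendrocyte list (1.30%, Mbp), 2 of 79 at the oligodendrocyte precursor list (2.53%, Lhfpl3) and 1 of 48 at the microglia list (2.08%, P2ry12, within Med12l). The endothelial and mural list had 3 of 63 (4.76%), at Tek and Pdgfrb, and the cholinergic list 1 of 22 (4.55%), at Lhx8. None of the 51 regions at the genes of GABA synthesis and release was a member. The 15 members of these lists were all called higher after AMPH at 60 min, the Rorb region no longer so without IP replicate 1 (1.20), IP replicate 3 (0.78) or UF replicate 4 (1.24). The Mbp region, in a gene that also encodes the neuronally expressed golli proteins, had 18.3 ± 5.57 CPM (SD, n = 4) in saline PV IP and 2.98 ± 0.65 CPM (SD, n = 4) in UF. The Rorb, Slc1a3 and P2ry12 regions had higher CPM in SST IP (13.5, 14.2 and 11.7) than in PV IP (3.03, 5.32 and 5.06). The SST values are of overlapping regions in a table with its own totals, so the scales differ. The median over all regions was 3.19 to 3.21 CPM in SST IP and 2.25 to 2.68 CPM in saline PV IP.

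Regions near the other lists were members about as often as regions overall. At genes of the perineuronal net, the matrix coat of many PV neurons, 5 of 146 were members (3.42%), at genes of neuregulins and their receptors 9 of 267 (3.37%), at axon guidance and adhesion genes 35 of 933 (3.75%) and at glutamate and GABA receptor genes 16 of 518 (3.09%). Acan, the core protein aggrecan of these nets, had 3 members among 10 regions. The highest (chr7:79060425-79060624) had 16.5, 12.1, 13.6 and 5.03 CPM in saline PV IP and 0.431 to 0.883 CPM in UF, and 3.60, 2.74 and 3.30 CPM in SST IP and 0.533 to 0.615 CPM in SST UF.

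Its AMPH fold at 60 min was 3.79 ± 0.37 (edgeR adjusted p = 3.0e-07). At 24 h after saline this Acan region had 9.22, 10.4 and 12.6 CPM in IP and no read in 4 UF libraries, so that it was at least 33.9-fold higher, taking 3 counts over the UF group as the floor. After AMPH at 24 h the log2 fold change was 5.17 ± 0.71 (adjusted p = 2.9e-07). Among the other lists, the highest members of Nrg1 (a ligand) and Egfr (a receptor) had log2 fold changes after AMPH at 60 min of 3.51 ± 0.37 and 2.71 ± 0.34, and that of the kainate receptor gene Grik1 had 2.77 ± 0.42. Those of Plxna4, a semaphorin receptor component, and of the cadherins Cdh13 and Cdh12 had 2.66 ± 0.50, 2.21 ± 0.38 and 3.23 ± 0.37. The highest edgeR adjusted p of these 6 was 1.7e-04, at Plxna4.

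Long genes with many regions held the most members. Tenm2, an adhesion protein of synapses, had 15 of 156 regions, Kcnmb2, an accessory subunit of BK potassium channels, 11 of 49, Prkg1, a cGMP-dependent kinase, 11 of 70, Agbl1 10 of 38 and Astn2 10 of 116. Cntnap5a, Galntl6, Kcnip1, Mcc and Slc14a2 had 9 each, as did Utrn and Wwox. In all, 1877 genes had a member within 2 kb and 93 had 5 or more. Among the genes with 5 or more, Atg4a on the X chromosome had the highest share, 7 of 14 regions, in clusters of 3 and 4, all 7 called after AMPH with folds of 1.65 to 2.79.

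The 11 Kcnmb2 members had folds of 1.79 to 3.55, and the 9 of Kcnip1, a partner of Kv4 channels, 1.70 to 2.71. The highest Kcnip1 region (chr11:33756727-33756926) had 47.3, 30.2, 23.6 and 15.1 CPM in saline PV IP and 5.84 to 8.47 CPM in UF, and 31.3, 23.3 and 26.6 CPM and 4.90 to 5.25 CPM in SST. It was called in each fit, with 2.37 ± 0.25 after AMPH at 60 min (edgeR adjusted p = 7.0e-07), 1.50 ± 0.44 after saline at 24 h (adjusted p = 0.00866) and 2.53 ± 0.29 after AMPH at 24 h (adjusted p = 4.6e-09). The saline call at 24 h was lost without IP library Iso2-2 (1.28) or UF library Iso2-2 (1.16). The highest Prkg1 region (chr19:30843235-30843434) was called at 60 min (1.31 ± 0.25, edgeR adjusted p = 2.1e-04). After saline at 24 h it had -0.18 ± 0.57 (edgeR adjusted p = 0.867), with 6.43 to 9.22 CPM in IP and 3.40 to 10.4 CPM in UF. That UF range includes the Iso1 libraries, while the saline fold at 24 h rests on the Iso2 libraries.

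The 24 h libraries came from other mice after repeated injections and give a further look at PV nuclei. Of the members, 5182 overlapped a region of that table (74.39%, against 65.59% of all PV regions), 5150 distinct regions in all. Members with a match had a median of 6.09 CPM in PV IP and those without 4.27 CPM. After saline the median over matched members was 2.98 to 3.27 CPM in the 3 IP libraries and 0 to 0.881 CPM in the 4 UF libraries. In the same libraries the 89 regions of the endothelial and mural list were also higher in IP, at 433.5 to 555.2 CPM against 158.7 to 216.2 CPM in UF after saline and 384.8 to 573.2 against 158.2 to 197.0 CPM after AMPH. The PV interneuron list ran at 675.3 to 736.2 against 413.2 to 502.0 CPM after saline and 744.6 to 799.7 against 457.4 to 490.7 CPM after AMPH. The part of this endothelial and mural signal in the members' values was not tested. Because all saline IP libraries carry the isolation number Iso2, the fitted fold rests on 3 IP and 2 UF libraries. It had a median of 1.97 over the 5150 (1.93 with the 262 members that had no UF read set at the floor of 3 counts), against 0.15 for all regions.

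The edgeR test called 1111 members higher after saline at 24 h, of the 3125 that passed the filter, and 1 lower, against a background of 8.69% called higher. Without the filter 1046 of 5150 were called higher (20.31%, background 5.00%), and 4824 were above 0. Every IP library exceeded every UF library in 2379 members (46.194%, against 12.2% of all regions). The filtered count fell to 475 without saline IP library Iso2-1 and to 395 without Iso2-2, where 1807 and 1803 members passed the filter. Calls followed level: 6.17% of members at 2 to 4 CPM and 53.54% of those at 16 CPM or more were called, while the median fold was 1.98 and 2.00 in these bins.

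After AMPH at 24 h, 2373 of the 4556 members that passed the filter were called higher and 2 lower, against a background of 11.9%; without the filter it was 2365 of 5150 (45.92%, background 9.77%). The median fold of all 5150 was 2.03, against -0.05 for all regions, and 2772 members did not overlap between IP and UF (53.825%, against 12.9%). The IP medians were 3.23, 3.48, 3.92 and 4.25 CPM and the UF medians 0.445, 0.823, 0.833 and 0.899 CPM.

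**Figure D5:**
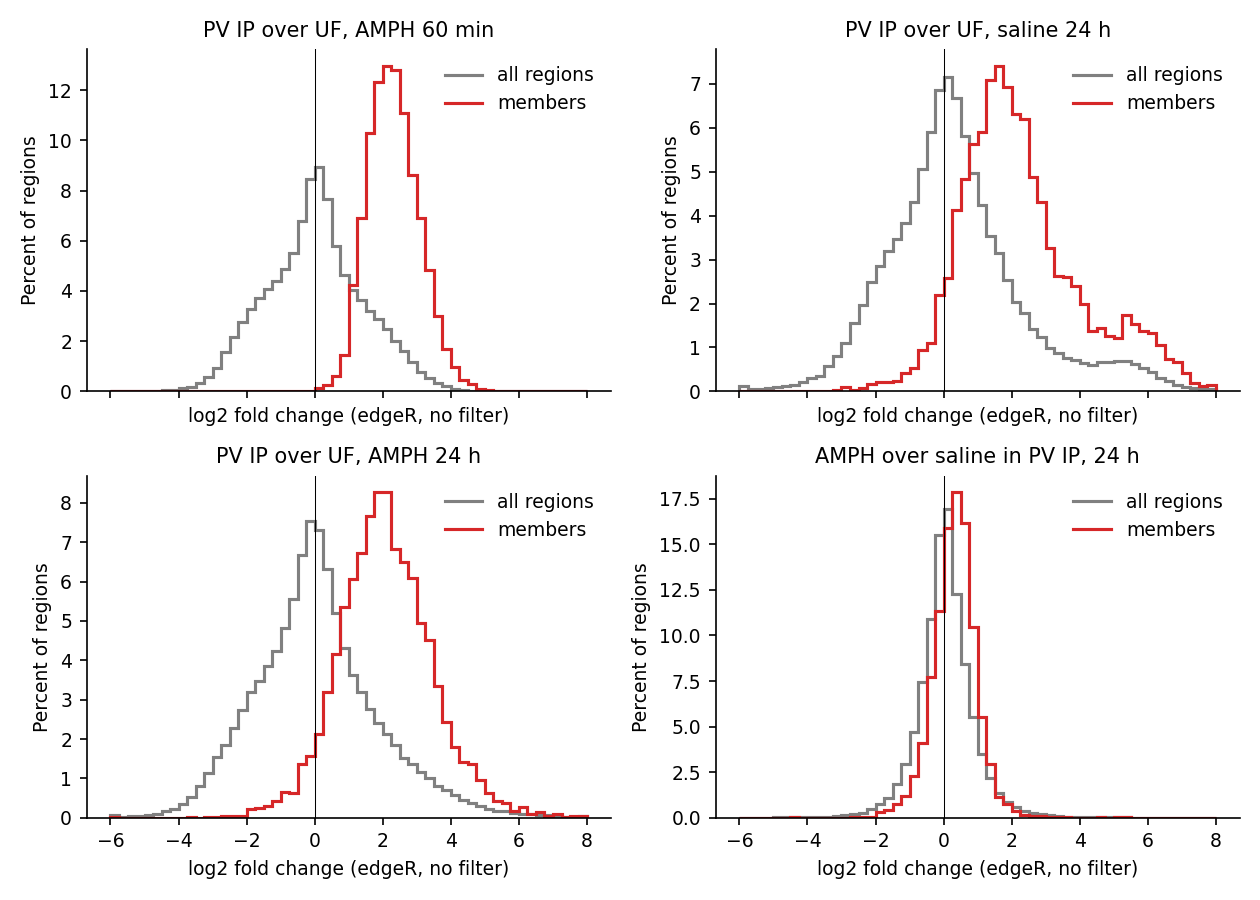
Distribution of the log2 fold change (x axis, edgeR without a filter) over members (red) and all regions of the table (grey), as percent of regions per bin of 0.25, for PV IP over UF after AMPH at 60 min, after saline at 24 h and after AMPH at 24 h, and for AMPH over saline in PV IP at 24 h. Members centre near 2 in the first 3 panels and at 0.33 in the last; the hump above 5 in the saline 24 h panel includes regions with few or no UF reads.

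The 5 matched members with the lowest saline fold at 24 h, of those with an edgeR logCPM of at least 2, were not called. They were at Gm20594 (-2.89 ± 1.42, edgeR adjusted p = 0.275), 7.59 kb from Ric8b (-2.78 ± 1.39, adjusted p = 0.284), near Arhgef38 (-1.87 ± 0.88, adjusted p = 0.125), near Banf2 (-1.83 ± 0.73, adjusted p = 0.0615) and far from Tyrp1 (-1.75 ± 1.19, adjusted p = 0.419). The regions named by Gm20594, Ric8b and Tyrp1 belong to the 18 high-count regions. In each of them, UF library Iso2-1 was far above the rest, with 128.1, 760.6 and 383.4 CPM, where the other UF libraries had at most 9.07, 25.0 and 31.0 CPM.

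AMPH did not separate the members from saline by the tests made. In PV IP at 24 h, a fit that rests on 3 AMPH and 3 saline Iso2 libraries called 0 of 4919 members either way, where 0.0273% of all regions were called (37, all lower). At an unadjusted p under 0.05 edgeR had 489 members (9.94%, background 4.01%) and DESeq2 245 (4.98%, background 2.32%), with 0 calls. Without saline IP library Iso2-2, edgeR called 5 members. The median log2 fold change of members was 0.32, against 0.03 for all regions. At 60 min the saline libraries had chosen the members, so no test was made: the median log2 ratio of AMPH over saline means was 0.13 in IP and 0.14 in UF over members, and 0.02 in both over all regions.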

How the data were processed

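ATAC-seq of 37 libraries was deposited as 3 tables of raw counts per 200 bp region in mm10, which were used as deposited. Per the submitters' processing notes, the authors used Bowtie2 2.3.4.3 and MACS2 2.1.2 among other tools, and how regions were merged is not given in the sources used here. No per-sample column was left unused (0 columns). The members and gene lists were chosen with earlier results of these data known.

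Levels are CPM of the column total. Each comparison was fitted on its whole table with edgeR 4.0.16 (R 4.3.3; TMM, filterByExpr at its limits of 10 counts and 15 in total, robust quasi-likelihood test, two-sided, Benjamini-Hochberg, called at an adjusted p under 0.05), with the isolation number (Iso) as a term at 24 h. Since the filter can pass a region through the group where it is high, the fit without it is given beside it, and counts per list, per bin and per gene come from that fit. The scripts were tested on simulated data. DESeq2 1.42.0, other scalings, a replicate block and each library left out were tried. P-values measure the spread between libraries, and whether an IP and a UF library share a mouse is not given in the labels. A member was matched to the 24 h region of largest overlap.

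Named regions are the 15 with the highest lower ratio, the 10 genes with most members, up to 3 genes per list (most members, the region of highest PV IP level), 3 on each side of the limit and the 5 with the lowest 24 h saline fold at a logCPM of at least 2. The start regions, the high-count regions, Atg4a, Utrn and Wwox were added after their values were seen, and some results at single genes are not reported here. Genes and start sequences are from RefSeq (GRCm38.p6), and a gene's regions are those within 2 kb of it.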

Additional observations from a re-analysis of the deposited data

Results flagged for a closer look

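In groups of 4 libraries, a value was picked out when the gap to its nearest neighbour took most of the group's range (Dixon's 95% limit). Of 314 groups of values looked at, 23 were picked, where the limit nominally picks about 1 in 20. That rate holds for normal values in separate groups. The values here are CPM, at times of few reads, and the groups share libraries.

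In PV IP at 60 min, single libraries stood apart after saline near B3gat1 (57.4 CPM) and Msc (21.4 CPM) and at Rorb (6.13 CPM). After AMPH they did so at Sox6 (27.4 CPM) and Tek (7.21 CPM).

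In PV UF after saline at 60 min, 1 library stood apart near Msc (1.08 CPM) and Pdcd1 (4.94 CPM) and at Crhbp (6.35 CPM) and Pdgfrb (2.82 CPM). In UF after AMPH at 60 min the same held near Cdh9 (0.415 CPM), Celf4 (1.18 CPM) and Bmp2 (2.96 CPM) and at Astn2 (3.46 CPM), Tek (0.830 CPM), Egfr (4.15 CPM) and Plxna4 (1.89 CPM).

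At 24 h all such values were in UF. After AMPH, library Iso1-3 had the lowest median over members (0.445 CPM), and Iso1-2 had 11.3 CPM at Prkg1. After saline, Iso1-2 stood apart near Maf (1.70 CPM), Iso2-2 at Sox6 (0.568 CPM) and Iso2-1 in the high-count regions at Gm20594 (128.1 CPM), Ric8b (760.6 CPM) and Tyrp1 (383.4 CPM). The cause of these values was not tested.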

How the results depend on the processing

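The rule kept 753 regions with a log2 limit of 2, and 5985 to 7326 when 1 saline library was left out. After AMPH at 60 min, 4773 to 6089 members were called with 1 library left out. After saline at 24 h the range was 395 to 1278, the DESeq2 Wald test called 727, and after AMPH at 24 h the range was 1847 to 2368. For AMPH over saline in PV IP the range was 0 to 5, with 5 without saline library Iso2-2. These settings also changed how many members passed the filter (5227 to 6534, 1803 to 4223 and 3994 to 4966 in the 3 IP comparisons). A replicate block, at 24 h on the libraries with shared numbers, called 6490 of 6841 members after AMPH at 60 min, 621 of 2656 after saline at 24 h, 1390 of 3774 after AMPH at 24 h and 3 of 4579 for AMPH over saline. On the regions of the planned filter, a setting chosen after seeing the data, the block called 4680, 831, 1272 and 2. Same-numbered libraries deviated together weakly (r of 0.080, 0.374, 0.117 and 0.109 at 60 min, IP replicate 1 being closer to UF replicate 3, at 0.155; -0.041 to 0.044 at 24 h), so the numbers were not taken as pairs. The sign at Prkg1 depended on the library left out (after saline at 24 h 0.046 without the Iso term, 0.053 without UF library Iso2-2 and -0.399 without UF library Iso2-1; after AMPH at 24 h 1.912 without IP library Iso1-1, -0.161 without IP library Iso2-1 and -2.233 without UF library Iso2-1). Without saline UF library Iso2-1 the sign also turned at Gm20594 (0.038), Ric8b (1.098) and Tyrp1 (0.896), which had -3.812, -3.745 and -2.646 without UF library Iso2-2. Of 728 alternative values at 63 named regions after AMPH at 60 min, 705 kept direction and call, 20 lost the call, 3 gained it and 0 turned. Of 171 at 14 regions after saline at 24 h these were 151, 9, 6 and 5, and of 122 at 9 regions after AMPH at 24 h 117, 1, 2 and 2. Without the 18 high-count regions, chosen after seeing the data, 4620, 1108, 2370 and 0 members were called in the 4 comparisons. The cause of the differences, depth included (650666 counts at the lowest), was not tested.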
